A study of Mus musculus and Rattus norvegicus with 32 samples.

Results

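The 7 genes described here were the leading genes of METTL5-cKO hearts at 3 months: Ndnf, Slc38a1, Lsp1, Dcakd, Ung, Armcx4 and Lad1. They were found by symbol, 7 of the 55487 genes listed in the mouse tables, and 6 of them are also listed in the rat table of 32883 genes, where no row carries the symbol Ndnf. They were chosen by the difference in their counts between METTL5-cKO and control hearts at 3 months, so their values in that contrast are a description and carry no test here. Tests are given for hearts of 1-month-old mice, for hearts after transverse aortic constriction (TAC, which overloads the left ventricle) and for cultured rat cardiomyocytes, whose samples did not pick the genes.

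All mice were of the C57BL/6 strain and the RNA came from whole hearts. The 1-month comparison set 4 METTL5-KO hearts, which lack METTL5 in the whole body, against 4 control hearts. The 3-month comparison set 4 METTL5-cKO hearts against 4 controls, and the third mouse comparison did the same at 3 months of age and 4 weeks after TAC, with the operation in both groups. In METTL5-cKO mice the floxed Mettl5 exons are deleted by Cre under the Myh6 promoter, so only cardiomyocytes lose the gene and the fibroblasts, endothelial cells and leukocytes of the heart keep it. Controls are labelled Ctrl without a full genotype, and the study describes them as littermates. In the rat comparison, neonatal rat ventricular cardiomyocytes (NRVMs) of Sprague Dawley pups, taken at postnatal day 2, received adenovirus with human METTL5 (AdMETTL5) or with GFP (AdGFP). All 8 of these cultures were also given phenylephrine (PE), an adrenergic agonist that enlarges cardiomyocytes, at 20 µM for 24 h. Nothing says whether the 4 libraries of a group came from separate cultures or isolations, so p-values measure the spread between libraries.

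METTL5 is an enzyme that methylates an adenosine of the small-subunit ribosomal RNA and is studied for its effects on translation. The 7 genes belong to no single pathway. Ndnf encodes a secreted neurotrophic glycoprotein that also acts on endothelial cells, and Slc38a1 a sodium-coupled transporter that takes up glutamine and other neutral amino acids. Lsp1 encodes an actin-binding protein best known in leukocytes, and Lad1 ladinin, a protein of the anchoring filaments under epithelia. Dcakd encodes a protein with a dephospho-coenzyme A kinase domain, the activity of the last step of coenzyme A synthesis. Ung encodes the uracil-DNA glycosylase that starts base excision repair, and Armcx4 an X-linked armadillo-repeat protein.

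All 7 are protein-coding, and their positions come from the GENCODE annotation of mouse build GRCm38. Ndnf (ENSMUSG00000049001) lies at chr6:65671590-65712326 on the plus strand. Slc38a1 (ENSMUSG00000023169) lies at chr15:96571418-96642913 on the minus strand. Lsp1 (ENSMUSG00000018819) lies at chr7:142460809-142494867 on the plus strand. Dcakd (ENSMUSG00000020935) lies at chr11:102994047-103028333 on the minus strand. Ung (ENSMUSG00000029591) lies at chr5:114130386-114139323, Armcx4 (ENSMUSG00000049804) at chrX:134686519-134696757 and Lad1 (ENSMUSG00000041782) at chr1:135818598-135833342, all on the plus strand. Dcakd shares 144 exonic bases with Nmt1 on the other strand, and reads from this stretch cannot be assigned if the libraries keep no strand. Lsp1 overlaps Prr33 on the other strand without shared exonic bases.

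RefSeq's promoter table (build GRCm38.p6) matched 4 of the 7 genes, Dcakd, Ung, Lad1 and Armcx4. The bases before the start of Dcakd and Ung are shown because these are the 2 genes whose RNA was lower in METTL5-cKO hearts, and those of Lad1 because its RNA was higher. Capitals mark the GC box GGGCGG, searched on both strands, and bases that lie in an exon of the gene itself were left off.
Ung, chr5:114130185-114130385, plus strand: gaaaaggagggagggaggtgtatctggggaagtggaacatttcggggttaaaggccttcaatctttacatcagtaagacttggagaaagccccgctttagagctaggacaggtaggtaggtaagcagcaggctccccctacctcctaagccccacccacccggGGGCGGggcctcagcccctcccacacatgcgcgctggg
Dcakd, chr11:103017169-103017397, minus strand: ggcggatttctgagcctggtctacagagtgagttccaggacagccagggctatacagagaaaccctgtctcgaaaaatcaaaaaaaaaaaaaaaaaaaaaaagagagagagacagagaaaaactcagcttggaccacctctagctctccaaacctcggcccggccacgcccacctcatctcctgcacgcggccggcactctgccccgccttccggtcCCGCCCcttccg
Lad1, chr1:135818348-135818597, plus strand: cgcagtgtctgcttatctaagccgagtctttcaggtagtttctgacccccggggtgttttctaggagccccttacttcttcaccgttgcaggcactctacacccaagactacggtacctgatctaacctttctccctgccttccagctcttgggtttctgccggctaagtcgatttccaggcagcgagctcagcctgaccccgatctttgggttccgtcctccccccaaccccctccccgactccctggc
Within 250 bases before the RefSeq start, a GC box was present in Ung, Dcakd and Armcx4 and not in Lad1, and 32.7% of the 32851 promoters in the table hold one. The CCAAT box (CCAAT), in 33.8% of all promoters, was found only in Armcx4 among these 4. The TATA box (TATAAA), in 12.4%, the E-box CACGTG, in 6.02%, and the cyclic AMP response element TGACGTCA, in 1.55%, were found in none of the 4 windows. The start that RefSeq gives for Dcakd lies inside the gene as GENCODE draws it.

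Total counts per library ranged from 19899033 to 21804907 in the hearts. In NRVMs they ranged from 17344430 to 18085339 in AdGFP cells and from 14324700 to 14642431 in AdMETTL5 cells, without overlap. The count of Mettl5 as a whole gene did not separate the genotypes, with log2 fold changes of 0.22 at 1 month, -0.18 at 3 months and -0.04 after TAC (adjusted p = 0.973, 0.884 and 0.874). Counts per gene do not resolve single exons, so the deletions were not checked here. The study reports almost no reads over the floxed exons in METTL5-cKO hearts. It does not say which exons the METTL5-KO allele lacks. Rat Mettl5 was higher by 0.32 in AdMETTL5 cells (adjusted p = 0.00295), where the virus carries the human sequence. The summed CPM of 10 cardiomyocyte markers was at least 25934 in every heart library. One library stood apart for several of the 7 genes, control 1 of the 1-month hearts. Its summed atrial markers reached 779 CPM, mostly Nppa, against 143 to 214 CPM in the other 3 controls of that age, its neutrophil markers 56.3 CPM against 2.09 to 5.12 CPM, and its cardiomyocyte markers 25934 CPM, the lowest of all hearts.

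The 3-month values chose the genes. Ndnf was measured at 4.23, 2.69, 2.33 and 3.23 CPM (counts relative to the TMM-scaled total of a library) in the 4 control hearts and at 10.6, 11.0, 10.7 and 7.75 CPM in the 4 METTL5-cKO hearts. Slc38a1 was measured at 4.63, 4.95, 3.93 and 4.96 CPM in controls and at 8.15, 10.9, 11.6 and 8.93 CPM in METTL5-cKO hearts. For both genes every METTL5-cKO library was above every control library. The log2 fold changes were 1.68 (SE 0.193) for Ndnf and 1.10 (SE 0.142) for Slc38a1, 3.21-fold and 2.14-fold on the linear scale. Lsp1 ranged from 20.5 to 22.9 CPM in controls and from 29.7 to 36.7 CPM in METTL5-cKO hearts, a log2 fold change of 0.66 (SE 0.0896). Armcx4 ranged from 3.87 to 4.66 CPM in controls and from 6.96 to 9.03 CPM in METTL5-cKO hearts (0.88, SE 0.121). Lad1 ranged from 0.974 to 1.93 CPM, or 22 to 43 counts, in controls and from 2.79 to 3.73 CPM in METTL5-cKO hearts (1.09, SE 0.209). These 3 were also higher in every METTL5-cKO library than in any control.

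Dcakd and Ung went the other way at 3 months. Dcakd was measured at 34.5, 36.0, 27.4 and 35.8 CPM in controls and at 20.5, 17.3, 18.9 and 19.4 CPM in METTL5-cKO hearts, a log2 fold change of -0.81 (SE 0.109). Ung was measured at 12.6, 12.2, 11.7 and 13.6 CPM in controls and at 7.94, 7.64, 6.27 and 7.02 CPM in METTL5-cKO hearts, a log2 fold change of -0.79 (SE 0.107). Control hearts thus held 1.75 times the Dcakd and 1.73 times the Ung of METTL5-cKO hearts, and no library crossed over. In edgeR's fit, 6 of the 7 genes were among the 12 genes of 16391 with an adjusted p under 0.05 (0.0732% of those tested), and nothing is read from this since that contrast picked them. With any 1 library left out, 0 to 2 of the 7 were under that limit. With all 8 libraries, the gene just inside it was Armcx4 (rank 12) and Lad1 lay outside it (rank 38). All 7 genes had groups that did not overlap, as had 4.23% of the genes tested. Beside these values, summed macrophage markers were 97.6 to 122 CPM in controls and 127 to 164 CPM in METTL5-cKO hearts, fibroblast markers 391 to 507 CPM and 496 to 641 CPM, atrial markers 104 to 166 CPM and 210 to 340 CPM, and cardiomyocyte markers 47346 to 49298 CPM and 41085 to 46343 CPM. Endothelial markers summed to 556 to 869 CPM in controls and 443 to 680 CPM in METTL5-cKO hearts, with overlap. No marker was called at 3 months in edgeR, while DESeq2 called Nppa (1.10), Pdgfra (0.54) and Dcn (0.50) higher and Kdr (-0.84) lower on the log2 scale. The other fibroblast markers, from Col1a1 (0.08) to Tcf21 (0.61), and the other endothelial markers, from Vwf (-0.005) to Emcn (-0.58), were not called. Nppa was the only atrial marker called. Myl7 (0.14), Myl4 (0.16), Dkk3 (0.25) and Stard10 (0.20) moved less, while Sln (2.60) and Bmp10 (-2.05) went opposite ways. Sln, Bmp10 and Myl7 had no adjusted p from DESeq2. The part of the markers in the changes was not tested, and in whole hearts fewer cells of a type cannot be told apart from less RNA per cell.

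**Figure D1:**
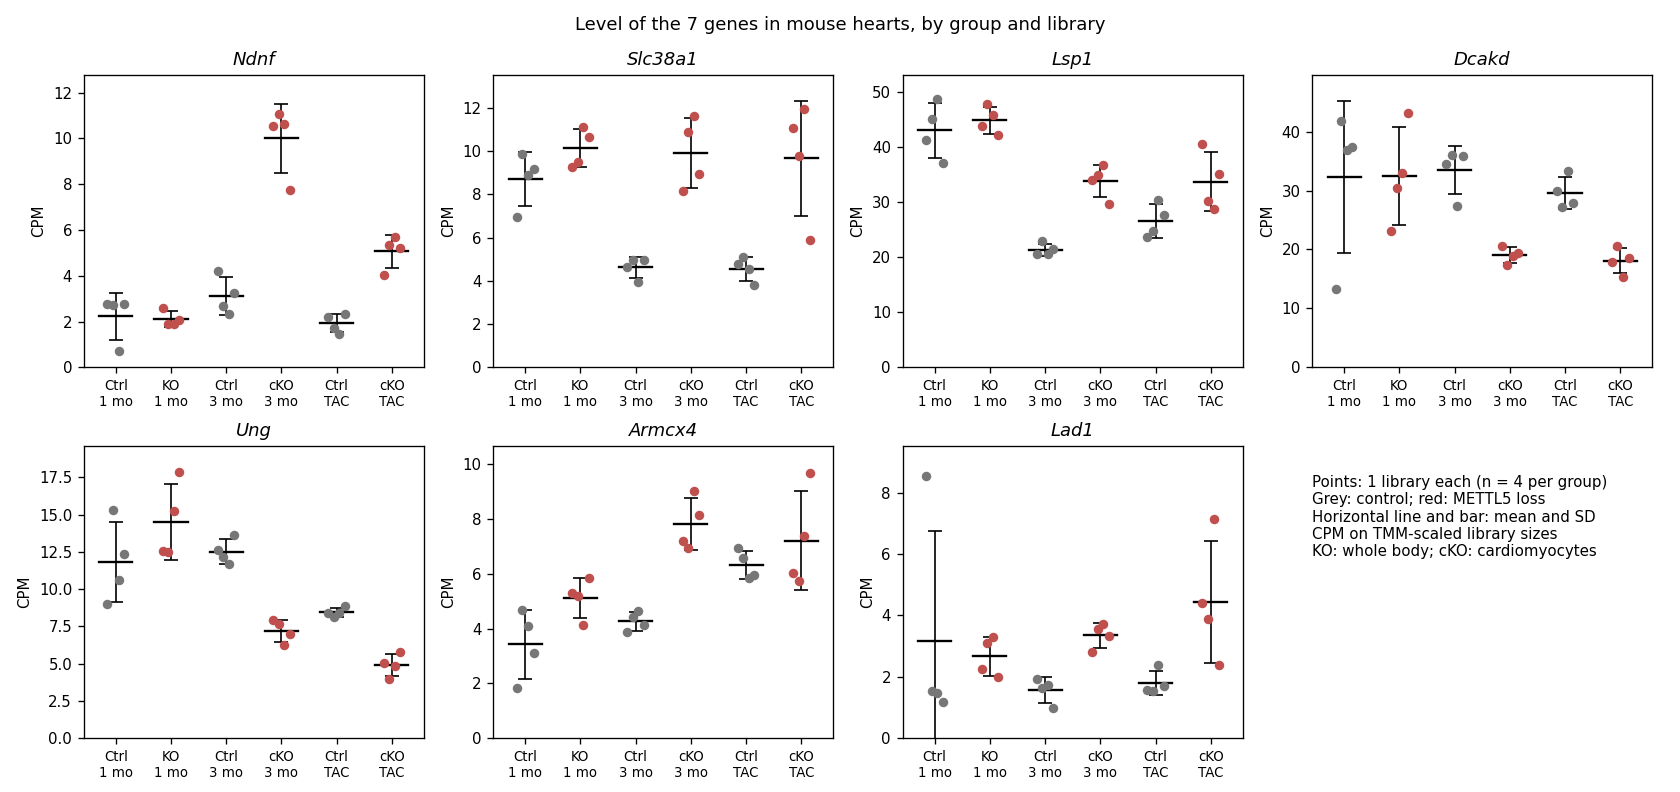
CPM of the 7 genes in each of the 24 mouse heart libraries, one panel per gene, with control groups in grey and METTL5-loss groups in red. Horizontal lines and bars give the mean and SD of 4 libraries, and the lower bar of Lad1 in 1-month controls (mean 3.18, SD 3.58 CPM) is cut at the axis. In the 3-month and TAC pairs the 2 colours separate for Ndnf, Slc38a1, Dcakd, Ung and Lad1, though only just for Lad1 after TAC. In the 1-month pair they overlap for all 7.

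At 1 month, whole-body loss of METTL5 came with no called change in any of the 7 genes. The METTL5-KO and control groups overlapped for all 7, where 3.01% of the genes tested did not overlap, and 0 of 7 passed an adjusted p under 0.05 in edgeR's quasi-likelihood test. None passed at an unadjusted p under 0.05 either, where 4.57% of all genes did. DESeq2 called none of the 7, but it gave Lad1 no adjusted p. The background was as low, with 1 of 16329 genes called (0.00612%). The median log2 fold change of the 7 genes was 0.06, beside -0.01 over all genes tested.

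The genes that were higher at 3 months gave small or uncertain differences in these younger hearts. Ndnf was measured at 2.78, 2.71, 0.704 and 2.78 CPM in controls and at 2.60, 1.90, 1.88 and 2.09 CPM in METTL5-KO hearts, and control 3, with 11 counts, was far below the rest. The log2 fold change of Ndnf was -0.09, with a 95% confidence interval from -0.90 to 0.72. Slc38a1 lay between 6.92 and 9.85 CPM in controls and between 9.25 and 11.1 CPM in METTL5-KO hearts (0.22, 95% interval -0.07 to 0.51). Lsp1 lay between 37.1 and 48.7 CPM in controls and between 42.1 and 47.8 CPM in METTL5-KO hearts (0.06, 95% interval -0.18 to 0.30). Armcx4 came nearest to a difference, with 1.82, 4.70, 4.10 and 3.11 CPM in controls and 5.30, 5.18, 4.13 and 5.85 CPM in METTL5-KO hearts. For Armcx4 the log2 fold change was 0.58 (SE 0.264, adjusted p = 0.973 from edgeR), and the exact two-sided permutation test gave p = 0.0571 against a smallest possible 0.0286. The lowest of these controls was control 1, and without it the log2 fold change was 0.37 (adjusted p = 0.791 from edgeR).

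Lad1 and Dcakd at 1 month rested on control 1. Lad1 was measured at 8.54, 1.53, 1.47 and 1.17 CPM in controls, the first of these being control 1 with 206 counts, and at 2.26, 3.12, 3.29 and 1.99 CPM in METTL5-KO hearts. The log2 fold change of Lad1 was -0.29 (SE 0.607) with that library and 0.94 without it (adjusted p = 0.975 and 0.663). Without control 1, each of the 4 METTL5-KO libraries was above each of the 3 controls left. No share over all genes was taken for 4 against 3 libraries, so nothing is read from this separation. Dcakd was measured at 13.2, 41.9, 36.8 and 37.3 CPM in controls and at 23.1, 30.5, 33.0 and 43.1 CPM in METTL5-KO hearts, with log2 fold changes of 0.01 with control 1 and -0.25 without it (adjusted p = 1.00 and 0.848). Ung was measured at 15.3, 10.6 and 12.4 CPM in controls 2, 3 and 4 and was lower still in control 1, with 217 counts, against 12.5 to 17.8 CPM in METTL5-KO hearts. Its log2 fold change of 0.30 (95% interval -0.10 to 0.69) had the sign opposite to that at 3 months.

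After TAC, 5 of the 7 genes changed with METTL5 loss and each in its 3-month direction. Ndnf, Slc38a1 and Lad1 were higher in METTL5-cKO hearts and Dcakd and Ung lower. Beside the 3 genes called higher and the 2 called lower, 6.57% of the 16340 genes tested were called higher and 6.10% lower, 12.7% in all. By count these were 1074 higher and 997 lower, and scaling by library size alone gave 2060 higher and 524 lower. The groups did not overlap for these 5 genes, and for 18.6% of all genes tested, and the exact two-sided permutation test gave each of the 5 p = 0.0286, the smallest that 4 against 4 libraries allow. With a log2 fold change beyond 1 in size asked as well, Ndnf, Slc38a1 and Lad1 were left, beside 2.90% of all genes. Lsp1 and Armcx4 did not pass the test.

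Ndnf was measured at 2.20, 1.74, 1.46 and 2.35 CPM in TAC controls and at 4.04, 5.34, 5.68 and 5.23 CPM in METTL5-cKO hearts after TAC. Every METTL5-cKO library was above every control. Its log2 fold change was 1.37 (SE 0.177, Benjamini-Hochberg adjusted p = 0.00573 in edgeR), a 2.59-fold difference. Slc38a1 was measured at 4.79, 5.11, 4.54 and 3.80 CPM in controls and at 11.1, 9.79, 11.9 and 5.91 CPM in METTL5-cKO hearts. METTL5-cKO library 4 was the nearest to the controls but still above all of them. The log2 fold change of Slc38a1 was 1.07 (SE 0.203, adjusted p = 0.0148), and it was 1.00 with an adjusted p of 0.0534 without control 4.

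Lad1 was measured at 1.58, 1.55, 2.37 and 1.69 CPM in TAC controls, or 33 to 47 counts, and at 4.39, 3.87, 7.14 and 2.37 CPM in METTL5-cKO hearts, or 49 to 181 counts. The lowest METTL5-cKO library and the highest control were nearly level, both at 2.37 CPM after rounding. Under scaling by library size alone the groups overlapped, with METTL5-cKO library 4 at 2.31 CPM and control 3 at 2.36 CPM. Its log2 fold change was 1.30 (SE 0.310, adjusted p = 0.0287). The call was lost when control 1, 2 or 4 or METTL5-cKO library 1, 2 or 3 was left out, with log2 fold changes from 0.98 to 1.36 and adjusted p from 0.0523 to 0.0851.

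Of the 2 genes that fell, Dcakd was measured at 29.9, 27.2, 33.4 and 28.0 CPM in controls and at 17.9, 20.6, 15.4 and 18.5 CPM in METTL5-cKO hearts. The fall of Dcakd was -0.73 on the log2 scale (SE 0.104, adjusted p = 0.00744). Ung was measured at 8.42, 8.11, 8.42 and 8.87 CPM in controls and at 5.08, 4.00, 4.85 and 5.76 CPM in METTL5-cKO hearts. That of Ung was -0.79 (SE 0.114, adjusted p = 0.00744). Neither gene had a library that crossed between groups, and both calls were kept in each of the 8 fits that left out 1 library, with adjusted p up to 0.0288 for Dcakd and 0.0346 for Ung.

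Lsp1 and Armcx4 had the same sign after TAC as at 3 months but smaller values. Lsp1 was measured at 23.6, 24.8, 30.4 and 27.6 CPM in controls and at 40.6, 30.2, 28.8 and 35.2 CPM in METTL5-cKO hearts. The groups overlapped through control 3, and the log2 fold change was 0.33 (SE 0.124, adjusted p = 0.108, 95% interval 0.05 to 0.60). Scaling by library size alone gave 0.46 and an adjusted p of 0.0319 for Lsp1, while the median of all genes moved to 0.14 under that scaling. Armcx4 was measured at 6.94, 6.57, 5.85 and 5.96 CPM in controls and at 6.02, 5.74, 7.38 and 9.68 CPM in METTL5-cKO hearts. Its log2 fold change was 0.17 (SE 0.166, adjusted p = 0.525, 95% interval -0.20 to 0.54), and it was 0.00 without METTL5-cKO library 4. Whether these values differ from those at 3 months was not tested, since the 3-month values chose the genes.

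METTL5-cKO library 4 after TAC had the lowest Slc38a1 and Lad1 of its group and the highest Armcx4. Its summed atrial markers were 2171 CPM against 5287 to 6038 CPM in the other 3 METTL5-cKO libraries, and its fibroblast markers 787 CPM against 1615 to 2418 CPM. In TAC controls these sums were 338 to 542 CPM for atrial and 518 to 644 CPM for fibroblast markers. After TAC, 6 of 8 fibroblast markers were called higher in METTL5-cKO hearts, 2 of 8 macrophage markers higher and 5 of 8 endothelial markers lower, as were 3 of 10 cardiomyocyte markers. Of the 7 atrial markers, 4 were tested and 2 of these were called higher. Macrophage sums were 150 to 197 CPM in controls and 197 to 267 CPM in METTL5-cKO hearts. The part of these shifts in the changes of the 7 genes was not tested. Without METTL5-cKO library 4 the same count of 5 genes was called, but over all genes 3899 of 16659 were called, against 2071 of 16340 with it. The log2 fold changes without that library were 1.36 for Ndnf, 1.25 for Slc38a1, 1.51 for Lad1, -0.73 for Dcakd and -0.87 for Ung.

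**Figure D2:**
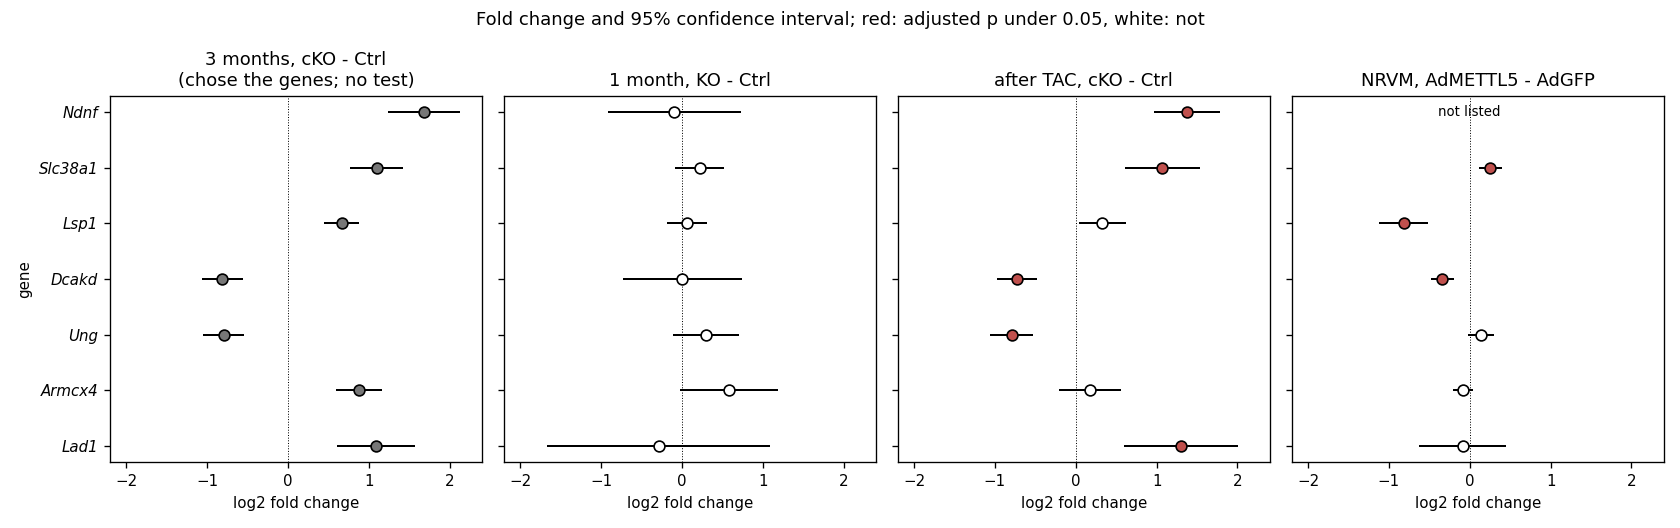
Log2 fold change (points) and 95% confidence interval (lines) of each gene in the 4 comparisons, with METTL5 loss over control in the hearts and AdMETTL5 over AdGFP in NRVMs. Red points passed an adjusted p under 0.05, white points did not, and grey marks the 3-month contrast that chose the genes. After TAC, 5 of 7 genes are red and lie on their 3-month side, none is red at 1 month, and in NRVMs 3 of 6 are red.

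The difference between the genotype effect after TAC and that at 1 month was tested in 1 fit of both tables. Ung passed, with a difference of -1.09 on the log2 scale (SE 0.224, adjusted p = 0.0388), among 108 of 17219 genes (0.627%). METTL5-KO hearts held a little more Ung than their controls at 1 month and METTL5-cKO hearts held less after TAC. The call was lost in 13 of the 16 fits that left out 1 library, with adjusted p from 0.0623 to 0.101, and also under scaling by library size alone (0.0748) and without the filter on low counts (0.0736). The differences were 1.48 for Ndnf (SE 0.415, adjusted p = 0.113), 0.86 for Slc38a1 (SE 0.251, adjusted p = 0.129) and -0.73 for Dcakd (SE 0.370, adjusted p = 0.379). Leaving out 1-month control 3 brought Ndnf to 1.75 with an adjusted p of 0.0177, and leaving out METTL5-cKO library 4 of the TAC hearts brought Slc38a1 to 1.03 with an adjusted p of 0.00636. Lad1 differed by 1.60 (SE 0.745, adjusted p = 0.332), and by 0.35 without 1-month control 1. Allele, age and operation all differ between these comparisons and cannot be told apart.

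In NRVMs METTL5 was raised and not lost, and the comparison asks whether the rat genes moved and in which direction. Of the 6 genes listed, Slc38a1 was higher and Lsp1 and Dcakd were lower in AdMETTL5 cells. This is 3 of 6 called, beside 52.8% of the 15041 genes tested (27.1% higher and 25.7% lower), so the share was near the background. The 4082 higher and 3867 lower genes became 5872 and 2343 under scaling by library size alone. None of the 6 changed by more than 1 on the log2 scale, beside 5.85% of all genes that were called and did. Only Lsp1 among the called genes had the sign opposite to that in the 3-month hearts.

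Lsp1 was measured at 14.2, 15.2, 10.4 and 10.5 CPM in AdGFP cells and at 7.15, 7.91, 6.76 and 6.67 CPM in AdMETTL5 cells. Its log2 fold change was -0.82 (SE 0.134, adjusted p = 0.00028), and AdGFP cells held 1.76 times as much. The macrophage markers listed in rat summed to 61.1 to 72.0 CPM in AdGFP cells and 48.5 to 59.3 CPM in AdMETTL5 cells, while neutrophil markers summed to at most 0.583 CPM and lymphocyte markers to at most 0.642 CPM in any of the 8 libraries. Dcakd was measured at 241, 225, 204 and 216 CPM in AdGFP cells and at 179, 188, 168 and 167 CPM in AdMETTL5 cells (-0.34, SE 0.059, adjusted p = 0.000458). Dcakd was thus lower with more METTL5 in rat cells and lower without it in the hearts at 3 months and after TAC. Slc38a1 was measured at 64.8, 76.6, 70.2 and 72.1 CPM in AdGFP cells and at 83.6, 83.2, 92.0 and 79.7 CPM in AdMETTL5 cells (0.25, SE 0.0609, adjusted p = 0.00386). It too kept the sign it had with METTL5 loss. All 3 calls held in each fit that left out 1 library.

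The other 3 genes did not pass in NRVMs. Ung lay between 25.9 and 30.8 CPM in AdGFP cells and between 30.9 and 35.0 CPM in AdMETTL5 cells. The groups came close without overlap, where 48.4% of all genes tested did not overlap, and the log2 fold change was 0.14 (SE 0.0684, adjusted p = 0.108). Scaling by library size alone gave 0.27 for Ung (adjusted p = 0.0099), with the median of all genes at 0.13 under that scaling. Armcx4 lay between 52.2 and 57.5 CPM in AdGFP cells and between 48.7 and 54.1 CPM in AdMETTL5 cells (-0.08, 95% interval -0.19 to 0.03). Lad1 was low, with 23 to 51 counts in all 8 libraries and a log2 fold change of -0.09 (95% interval -0.62 to 0.44). The signs of Armcx4 and Lad1 flipped under scaling by library size alone. Beside these values, all 9 cardiomyocyte markers listed were lower in AdMETTL5 cells, with sums of 32445 to 41090 CPM in AdGFP cells and 14484 to 16182 CPM in AdMETTL5 cells, and their part was not tested.

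**Figure D3:**
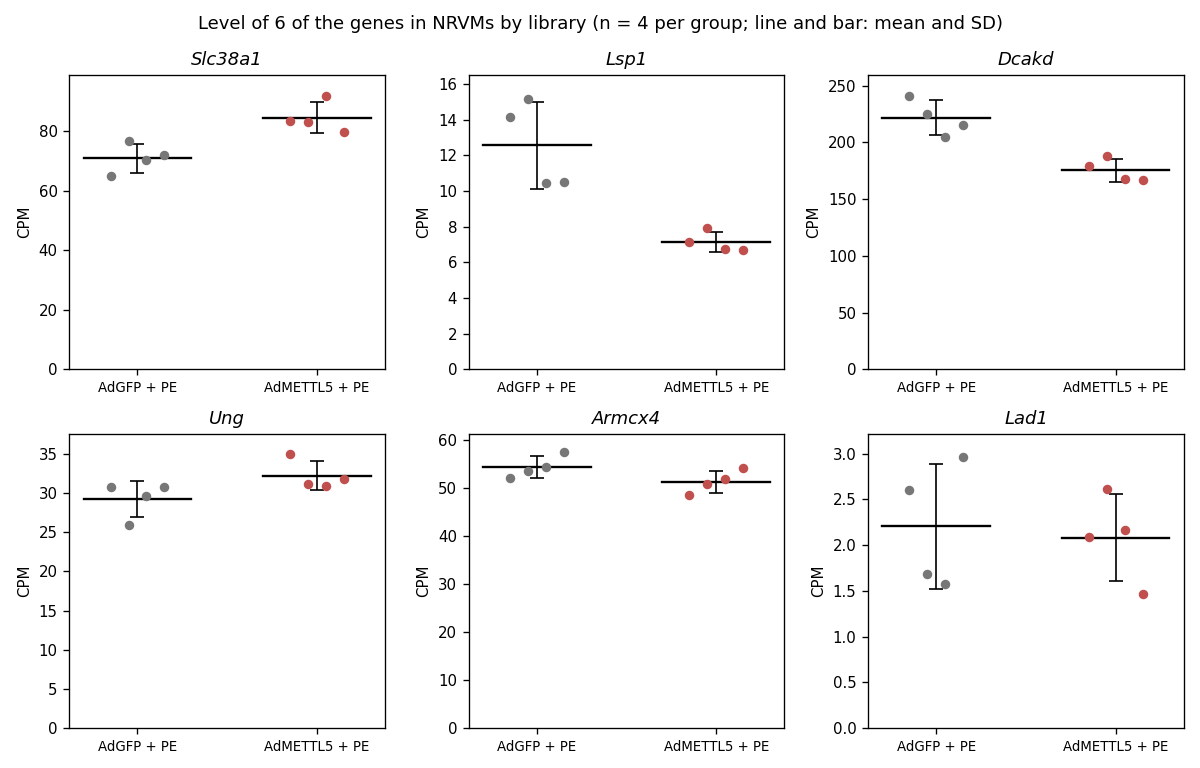
CPM of the 6 genes listed in rat in each of the 8 NRVM libraries, AdGFP with PE in grey and AdMETTL5 with PE in red, with the mean and SD of 4 libraries. Lsp1 and Dcakd are lower and Slc38a1 is higher in all 4 AdMETTL5 libraries, while Armcx4 and Lad1 overlap.

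Set on one CPM scale, the 24 heart libraries showed where the controls themselves stood. Slc38a1 averaged 8.71 ± 1.26 CPM (SD, n = 4) in 1-month controls, 4.62 ± 0.483 in 3-month controls and 4.56 ± 0.558 in TAC controls. The METTL5-cKO hearts, at 9.89 ± 1.62 CPM at 3 months and 9.67 ± 2.66 CPM after TAC, overlapped the 1-month controls and not the controls of their own age. Lsp1 showed a like order, with 43.1 ± 4.98 CPM in 1-month controls, 21.4 ± 1.10 in 3-month controls and 26.6 ± 3.04 in TAC controls, while its METTL5-cKO hearts lay at 33.8 ± 2.97 CPM at 3 months, below every 1-month library, and at 33.7 ± 5.34 CPM after TAC, overlapping them. Under scaling by library size alone, Lsp1 reached 38.7 CPM in 3-month METTL5-cKO hearts and went down to 32.1 CPM in 1-month controls. The 2 groups then overlapped. The ages come from separate tables, so age and any other difference between these sets of libraries cannot be told apart.

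Ung levels fell in steps under TMM scaling. The gene was highest in METTL5-KO hearts at 1 month (14.5 ± 2.55 CPM, SD, n = 4), and the groups of 3-month controls (12.5 ± 0.828) and 1-month controls (11.8 ± 2.70) followed with overlap. TAC controls (8.45 ± 0.310), METTL5-cKO hearts at 3 months (7.21 ± 0.737) and METTL5-cKO hearts after TAC (4.92 ± 0.725) came next, each without overlap with the one before, while under scaling by library size alone only the last of these steps was free of overlap. Dcakd fell into an upper set of 4 groups between 29.6 and 33.4 CPM and a lower pair, METTL5-cKO hearts at 3 months (19.0 ± 1.33) and after TAC (18.1 ± 2.12), which overlapped each other. The exception was 1-month control 1, at 13.2 CPM below every METTL5-cKO library. Ndnf was highest in METTL5-cKO hearts at 3 months (10.0 ± 1.52), and the METTL5-cKO hearts after TAC (5.07 ± 0.713) came second without overlap with it. The lowest METTL5-cKO library of Ndnf after TAC, at 4.04 CPM, was below the highest 3-month control, at 4.23 CPM. Armcx4 in TAC controls (6.33 ± 0.515) lay above all 3-month controls (4.27 ± 0.347) and near METTL5-cKO hearts after TAC (7.21 ± 1.80). Over the 7 genes, 8 neighbouring pairs of groups did not overlap, and 5 when libraries were scaled by size alone. No share over all genes was taken for such pairs, and the 3-month groups that chose the genes are among them. Nothing is read from these counts.

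Between genes, levels can be compared only per length of exon. The length used was all exonic bases annotated for a gene, from 2556 for Dcakd to 17236 for Slc38a1. Which transcripts the hearts expressed was not examined, and the order of the genes may depend on this choice of length. In 3-month controls, Dcakd had the highest level, 13.1 CPM per kilobase, followed by Lsp1 at 4.13 and Ung at 2.29. Armcx4 at 0.534, Lad1 at 0.463, Ndnf at 0.308 and Slc38a1 at 0.268 CPM per kilobase were much lower. In METTL5-cKO hearts of the same age, Dcakd at 7.45 and Lsp1 at 6.54 CPM per kilobase came close to each other, and Ndnf, Lad1 and Armcx4 lay together at 0.989, 0.985 and 0.980.

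**Figure D4:**
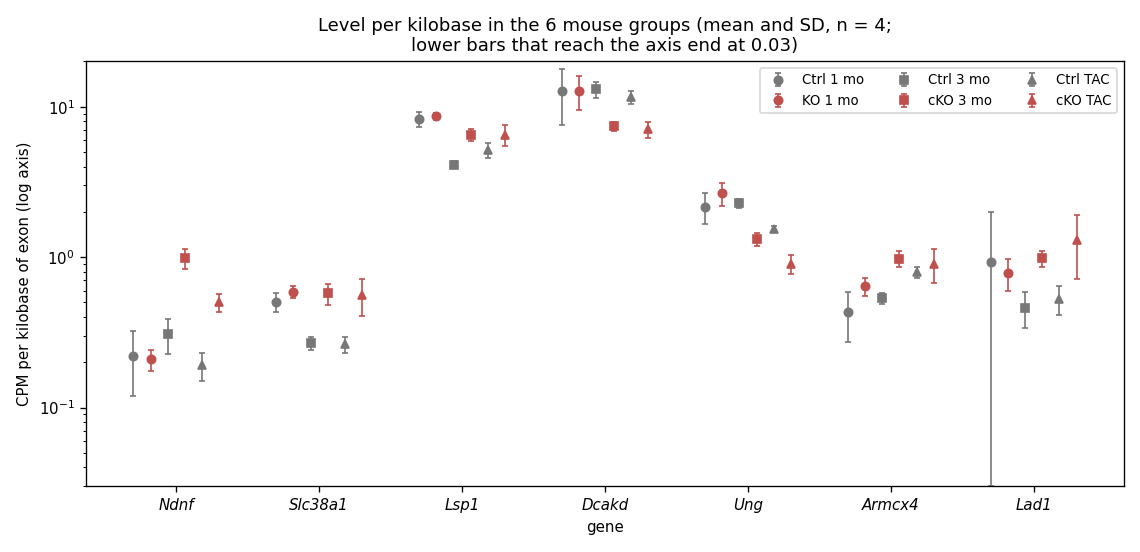
Mean CPM per kilobase of exon, on a log axis, of the 7 genes in the 6 mouse groups, with bars for the SD of 4 libraries. Dcakd and Lsp1 stay at or above 4.13 CPM per kilobase in all groups, Ung lies between 0.901 and 2.66, and the other 4 genes lie between 0.191 and 1.31.

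The wider families of the 7 genes were read from lists that name their relatives without the gene itself. At 1 month and at 3 months edgeR called no gene of any of the 7 lists. After TAC, where 6.57% of all genes were called higher and 6.10% lower, 5 of 17 other neutral amino acid transporters tested were higher in METTL5-cKO hearts and 0 lower, with a median log2 fold change of 0.25 beside 0.00 over all genes tested. Slc38a4, a close relative of Slc38a1, was higher by 1.11 (SE 0.149, adjusted p = 0.00627), Slc1a4, a carrier of alanine and serine, by 1.01 (SE 0.221, adjusted p = 0.0215), and Slc43a2, a carrier of large neutral amino acids, by 0.62 (SE 0.135, adjusted p = 0.0218). In coenzyme A synthesis and turnover, the list of Dcakd, 0 of 14 were higher and 4 lower, with a median of -0.13. Slc25a42, which carries coenzyme A into mitochondria, fell by 0.79 (SE 0.167, adjusted p = 0.0195), the pantothenate kinase family member Pank4 fell by 0.54 (SE 0.133, adjusted p = 0.0307), and Nudt7, a peroxisomal enzyme that breaks coenzyme A down, fell by 0.43 (SE 0.0877, adjusted p = 0.0176).

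The lists of the other 5 genes held few calls after TAC, beside 12.7% of all genes. In base excision repair, 1 of 25 was higher and 1 lower (median 0.02). Apex2, an endonuclease of the pathway, fell by 0.88 (SE 0.183, adjusted p = 0.0191), and Lig3, a DNA ligase, was higher by 0.33 (SE 0.0911, adjusted p = 0.0422). Among anchoring filament and hemidesmosome genes, 1 of 9 was called, Cd151, a tetraspanin, higher by 0.29 (SE 0.0747, adjusted p = 0.0344). None of 15 leukocyte actin regulators passed (median 0.26), none of 9 genes of the ARMCX and GPRASP family (median -0.01) and none of 8 neurotrophic factors (median -0.11). Among the actin regulators, Lcp1 had a log2 fold change of 0.56 (SE 0.164) and Coro1a one of 0.31 (SE 0.196).

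In NRVMs, where 52.8% of all genes were called, 6 of 19 amino acid transporters were higher and 3 lower, 4 of 15 coenzyme A genes higher and 8 lower, and 9 of 25 base excision repair genes higher and 6 lower. Slc7a5, a carrier of large neutral amino acids, was higher by 0.44 (SE 0.0407, adjusted p = 3.33e-06), and Slc38a3 by 0.93 (SE 0.102, adjusted p = 1.34e-05). Pank1, which starts coenzyme A synthesis, was higher by 0.51 (SE 0.0665, adjusted p = 5.1e-05), and Nudt8 was lower by a log2 fold change of -0.85 (SE 0.0921, adjusted p = 1.21e-05). In the repair list, the flap endonuclease Fen1 was higher by 1.49 (SE 0.0706, adjusted p = 2.27e-08), Apex2 by 0.98 (SE 0.0804, adjusted p = 1.26e-06), and Parp1 had a log2 fold change of -0.55 (SE 0.0437, adjusted p = 9.45e-07). Cycling-cell markers summed to 357 to 381 CPM in AdGFP cells and to 489 to 522 CPM in AdMETTL5 cells, with 5 of 7 called higher and 1 lower, and their part in the repair list was not tested. In the 4 other lists, 1 of 9 ARMCX and GPRASP genes was higher and 4 lower, 2 of 14 actin regulators higher and 1 lower, 4 of 9 hemidesmosome genes higher and 4 lower, and 4 of 13 neurotrophic factors higher and 2 lower. Lamb3, a laminin chain of anchoring filaments, had a log2 fold change of -1.94 (SE 0.0517, adjusted p = 7.07e-10), and Bdnf, a neurotrophin, was higher by 1.60 (SE 0.115, adjusted p = 4.3e-07).

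The spread of the 7 genes within groups was also described, by correlating log2 CPM after each group's mean was taken away, over 24 heart libraries that share their groups and their depth. Dcakd followed Ung (r = 0.63) and Armcx4 (r = 0.60) and ran against Lad1 (r = -0.76), and Ndnf and Slc38a1 hardly moved together (r = -0.05). Without 1-month control 1, the r of Dcakd was 0.46 with Ung, -0.02 with Armcx4 and -0.23 with Lad1, so the last 2 rested on that library. The 3 genes closest to Dcakd among 15542 were Plod1 (r = 0.93), Nacc1 (0.93) and Serpinh1 (0.93), those closest to Ung were Qrsl1 (0.86), Gal3st3 (0.85) and 2810006K23Rik (0.85), and those closest to Armcx4 were Tnnt1 (0.94), Fitm1 (0.87) and Mrpl12 (0.85). Ndnf was closest to Gm14038 (0.88), Lgr4 (0.86) and Med23 (0.85), Slc38a1 to Fgl2 (0.81), Cystm1 (0.79) and Eif1a (0.78), Lsp1 to Rara (0.79), Gm6473 (0.77) and Akr1b8 (0.77), and Lad1 to Tstd2 (0.87), Sema3b (0.83) and Paxx (0.82). Without 1-month control 1, 10 of these 21 genes were still among the closest 3, and none of those of Lad1.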

How the data were processed

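RNA was sequenced from 24 mouse hearts and 8 NRVM cultures, 4 libraries in each of 8 groups taken from the labels. Per the labels and the study's methods, the authors aligned reads with HISAT2 (2.0.4) to GRCm38 or Rnor_6.0 and deposited StringTie (2.1.4) estimated counts per gene, whole numbers not scaled between libraries. DESeq2 (1.4.5) is also named in their processing notes. Strandedness is not given in the sources used here, nor is the step that turned StringTie output into counts. Only estimated counts were used, and 396 rat rows without a symbol were tested under their identifiers.

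Separate models were built for the 4 comparisons, using edgeR 4.0.16 under R 4.3.3. Genes were kept by filterByExpr at a minimum count of 10 and a minimum total of 15 with groups of 4, libraries were scaled by TMM, and glmQLFTest followed glmQLFit. Adjusted p-values are Benjamini-Hochberg values over all genes tested. Genes with an adjusted p under 0.05 were called. An exact permutation test (two-sided, 70 relabelings) set the groups' mean log2 CPM, with a prior count of 2, against each other for single genes. Levels are CPM from 1 TMM scaling over the 24 hearts, and from another over the 8 NRVM libraries. Standard errors were taken from the fitted log2 fold change and its F statistic. The biological coefficient of variation (root of the common dispersion) was 0.221 in the 1-month table, 0.181 in the 3-month table, 0.159 for TAC and 0.0675 for NRVMs.

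The genes, lists and markers were chosen with earlier results of these data known. The text names the 7 genes, the 3 genes most like each, up to 3 called genes of each list with the smallest adjusted p, and Mettl5. From the actin list, Lcp1 and Coro1a were named after their values were seen. So were the markers that DESeq2 called at 3 months and the other atrial, fibroblast and endothelial markers named beside them. The alternatives were the Wald test of DESeq2 1.42.0, DESeq2 size factors inside edgeR, no scaling beyond library size, no filter, at least 10 counts in every library, a minimum absolute log2 fold change of 1, a replicate block for the 1-month table, and fits without 1 library. The fits were tested on simulated data. Library numbers come from the labels at 1 month and only name libraries elsewhere.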

Additional observations from a re-analysis of the deposited data

Results flagged for a closer look

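In 54 sets of 4 libraries, 4 held a library far from the other 3 by Dixon's 95% criterion, which chance alone gives in about 1 of 20 sets. Ndnf was 0.704 CPM in 1-month control 3 against 2.71 to 2.78 CPM in the other controls. Lad1 was 8.54 CPM in 1-month control 1 against 1.17 to 1.53 CPM. Ndnf was 7.75 CPM in METTL5-cKO library 4 at 3 months against 10.6 to 11.0 CPM, and Dcakd was 27.4 CPM in 3-month control 3 against 34.5 to 36.0 CPM.

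The effect of METTL5 loss on Ung differed between the hearts after TAC and those at 1 month, by -1.09 on the log2 scale in the interaction test, with the losses of that call under other settings given above.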

How the results depend on the processing

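In the tested comparisons, 126 of 135 fold changes and differences of the 7 genes under other settings kept their direction and their side of the threshold, as did 240 of 272 with 1 library left out. Lad1 at 1 month in DESeq2, which had no adjusted p, is counted as kept. At 3 months, where none is tested here, all 35 and 56 such values kept their sign and moved by less than 1 SE, but the 6 genes under an adjusted p of 0.05 became 0 without the filter, 4 under scaling by library size alone, 7 in DESeq2 and 0 to 2 with any 1 library left out. With a minimum absolute log2 fold change of 1, 3 of the 7 genes passed after TAC and 0 of 6 in NRVMs, where no fold change was that large. The count of 5 after TAC ranged from 3 to 5 with 1 library left out, was 3 without control 4, and over all genes the count of 2071 was 696, 1041 and 479 without control 2, 3 or 4, 971, 536, 1020 and 3899 without METTL5-cKO library 1, 2, 3 or 4, and 1052 without the filter. The single gene with a different effect after TAC and at 1 month became 0 under scaling by library size alone and 0 without the filter, and 0 to 2 with 1 library left out. Lad1 after TAC was not called without the filter (1.32, adjusted p = 0.0631). Over all genes, DESeq2 called 13 at 1 month against 1, and 108 at 3 months against 12, which became 2 to 9 with any 1 library left out and 1 without the filter. The closest genes shared 8 of 21 by Spearman correlation, 11 by library size and 10 without 1-month control 1, the last chosen after seeing the data. The 8 pairs of neighbouring groups without overlap became 5 under scaling by library size. The causes were not tested.

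At 1 month the replicate block turned Ndnf to 0.010 and Lad1 to 0.20 and changed no call. The numbers gave no pairing, with correlations of same-numbered libraries of 0.24, 0.12, -0.11 and 0.08, and the other tables carry no numbers to block on. With 1 library left out, values at 1 month ranged from -0.37 to 0.028 for Ndnf, from -0.0017 to 0.13 for Lsp1, from -0.25 to 0.16 for Dcakd and from -0.56 to 0.94 for Lad1, and Lad1 in NRVMs from -0.22 to 0.087. Under scaling by library size alone, Armcx4 (0.053) and Lad1 (0.045) in NRVMs turned sign. The median absolute log2 fold change of the 7 genes at 3 months, 0.88, ranged from 0.81 to 0.92 with 1 library left out. Low counts limit Lad1 (22 to 43 in 3-month controls) and Ndnf (11 in 1-month control 3).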
